A study of Mus musculus with 22 samples.

Results

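Shelterin and telomerase genes were examined for peaks of G-quadruplex DNA (G4), open chromatin (ATAC), the chromatin remodeler ATRX and trimethylated histone H3 lysine 9 (H3K9me3) after loss of the telomeric RNA TERRA. The set was a fixed list of 10 genes of 26180 genes with a curated RefSeq transcript, 21000 of them protein-coding: the shelterin genes Terf1, Terf2, Terf2ip, Pot1a, Pot1b, Tinf2 and Acd, the telomerase genes Tert and Dkc1, and the helicase gene Rtel1. Each gene was represented by its body and by the window within 1 kb of its transcription start site (TSS), the most upstream curated start in GRCm38. The cells were mouse embryonic stem (ES) cells of the hybrid background CAST/Ei x 129/Sv/Jae, grown with serum and LIF, and taken off their feeder fibroblasts before transfection per the study's methods. They received either a scramble LNA gapmer (scramble KD) or a gapmer against TERRA (TERRA KD), an antisense oligonucleotide that directs RNase H to its target, and were collected at 12 h. Each of the 4 assays gave 2 replicates per condition, hence 16 peak lists. Both conditions carried an LNA oligonucleotide, so no untransfected level was available, and the RNA of the 10 genes was not measured in these lists.

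Shelterin coats the double-stranded and single-stranded telomeric repeats and keeps chromosome ends from being handled as breaks. TRF1 and TRF2 (from Terf1 and Terf2) bind the duplex repeat, RAP1 (Terf2ip) rides on TRF2, POT1a and POT1b hold the single-stranded overhang, TPP1 (Acd) carries POT1 and draws in telomerase, and TIN2 (Tinf2) bridges the parts. Telomerase copies the repeat from an RNA template with the TERT enzyme, dyskerin (Dkc1) stabilises that RNA, and RTEL1 unwinds telomere loops and G4. TERRA is transcribed from chromosome ends, and G4 is a stack of guanine tetrads that can form in single-stranded G-rich DNA.

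The sequences below are the stretches on which the G4 results turn, read 5′ to 3′ along each gene from the RefSeq GRCm38.p6 genome. A G4 motif was taken as 4 or more runs of at least 3 G with loops of 1 to 7 bases on either strand, overlapping matches joined, and is set in capitals (a run of C marks a motif on the opposite strand). The first is the start of Terf2 (chr8:107096392-107096421, minus strand), within the first exon, where both scramble KD lists and neither TERRA KD list had a G4 peak. The others are the stretch upstream of Acd (chr8:105701610-105701639, minus strand), a motif in an intron of Acd (chr8:105699338-105699385) and a motif in an intron of Tert (chr13:73648106-73648171, plus strand), each under G4 peaks of both conditions. The last pair, upstream of Rtel1 (chr2:181319584-181319654, plus strand) and of Pot1b (chr17:55712751-55712826, minus strand), carried a motif that lay under no G4 peak in any list.
Terf2 first exon: gtcGGGAGGGCGGGGAGGGCGGGGAGGGcg
Acd upstream: gcactcgCCCCGCCCTCCCACCCaaaccat
Acd intron: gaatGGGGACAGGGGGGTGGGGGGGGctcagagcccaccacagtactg
Tert intron: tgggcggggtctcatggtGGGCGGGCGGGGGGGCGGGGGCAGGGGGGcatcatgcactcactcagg
Rtel1 upstream: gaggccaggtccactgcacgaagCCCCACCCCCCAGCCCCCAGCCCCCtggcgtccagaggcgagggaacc
Pot1b upstream: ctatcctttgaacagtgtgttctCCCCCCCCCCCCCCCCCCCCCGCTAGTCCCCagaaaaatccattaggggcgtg

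A G4 motif lay within 1 kb of the TSS at 4 of the 10 genes (Terf2, Pot1b, Acd and Rtel1), against 57.2% of the 21000 coding-gene windows of the same length. The GC content of the windows ran from 39.8% at Pot1b to 58.9% at Acd, with a median of 51.7% over coding genes. No window and no gene body of the set held a tandem run of 2 or more TTAGGG on either strand, a feature of 0.124% of coding-gene windows.

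Peaks are given with the values of their own list, which are not scaled to those of the other libraries. For G4, ATRX and H3K9me3 these are the sequence tags inside the peak, the fold enrichment over the local background and the −log10 p. A percentile is the rank of the −log10 p within the list. The libraries held 2961038 to 24588605 tags for G4, 5976014 to 7883648 for ATAC, 4104486 to 15506154 for ATRX and 5435286 to 13898785 for H3K9me3. The G4 comparison rests on 1 input per condition, of 23359214 tags for both scramble KD lists and 19824848 for both TERRA KD lists. For G4, TERRA KD was the deeper library of replicate 1 (5759282 against 2961038 tags) and the shallower of replicate 2 (13127555 against 24588605). Lists of the same assay differed between replicates by more than conditions did in some cases, above all for H3K9me3, where replicate 1 gave 26414 and 25490 peaks with median lengths of 2404 and 3120 bp, and replicate 2 gave 76213 and 74925 peaks with medians of 491 and 515 bp. As a check of the cell type, 7 or 8 of 8 ES cell marker genes had an ATAC peak at the TSS in every list, as did 4 of 6 feeder fibroblast markers (Col3a1 and Postn at none) and 3 of 4 endoderm markers (Sox17 at none). Open promoters are not expression, so these counts do not give the share of other cells, whose part in the results was not tested.

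**Figure D1:**
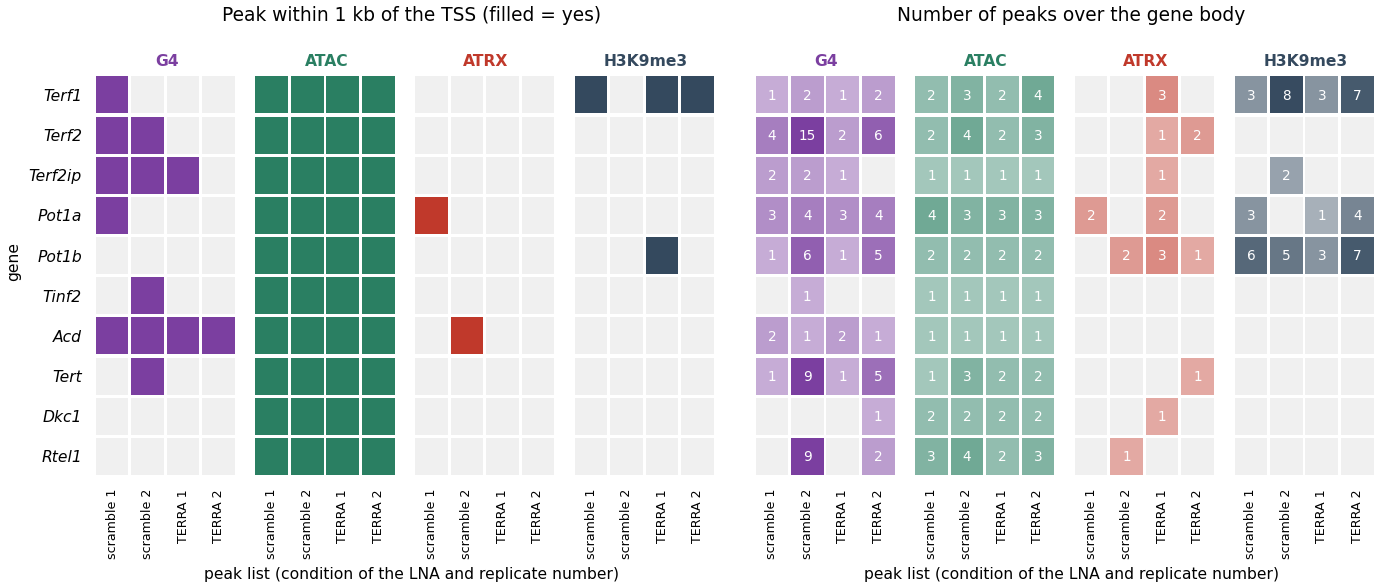
Peaks at the 10 genes (rows) in the 16 peak lists (columns, grouped by assay). The left panel marks a peak within 1 kb of the TSS by a filled square, and the right panel gives the number of peaks over the gene body. ATAC squares are filled for all 10 genes in all 4 lists, while G4 squares number 5 and 5 in scramble KD against 2 and 1 in TERRA KD.

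The starts of all 10 genes were open in both conditions. Each had an ATAC peak within 1 kb of the TSS in all 4 lists, which was so for 63.0% of coding genes. The strongest such peak of each gene ranked from the 69.7th to the 98.8th percentile of its list. Over the 10 genes the median percentile was 88.2 and 91.8 for scramble KD against 88.8 and 91.6 for TERRA KD, beside medians of 78.6, 83.1, 82.0 and 84.3 over the coding genes with a peak. Pot1a, Pot1b, Tinf2 and Dkc1 stood highest, each above the 92nd percentile in every list, and Rtel1 was lowest in 3 of the 4.

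Pot1a, for a protein that binds the single-stranded overhang, showed an ATAC fold enrichment at the TSS of 13.0 and 15.8 in scramble KD against 15.1 and 16.9 in TERRA KD. At Dkc1 it was 12.6 and 12.4 against 12.8 and 13.6. The enrichment at Tert was 8.87 and 9.83 against 9.90 and 9.43. The values of the conditions overlapped at Pot1a and Tert, and at Dkc1 both TERRA KD values were the higher. The strongest peak at the Terf2 start gave 8.58 and 12.2 against 8.85 and 10.4, again overlapping.

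Open sites inside the genes were also shared. An intron of Pot1a was open 7.83 to 7.97 kb from the TSS in all 4 lists, Rtel1 13.0 to 13.1 kb, Dkc1 7.95 to 8.24 kb, Terf1 9.28 to 9.44 kb, Terf2 at about 10.9 kb and Pot1b 9.80 to 10.2 kb. In total, 19 and 24 ATAC peaks lay over the 10 bodies in scramble KD against 18 and 22 in TERRA KD. Terf2ip, Tinf2 and Acd had 1 body peak each, at the start, in every list.

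G4 peaks at gene starts were fewer in TERRA KD. A G4 peak within 1 kb of the TSS was found at 5 and 5 of the 10 genes in scramble KD, compared with 2 and 1 in TERRA KD, with no overlap between the conditions. If only peaks with a −log10 p of 5 or more were counted, there were 1 and 5 against 1 and 0, so the conditions overlapped and only replicate 2 differed. At that cutoff the share of coding genes was 17.9% and 38.7% in scramble KD against 21.3% and 5.49% in TERRA KD. With all peaks of the lists counted, the share of all coding genes with a G4 peak at the TSS was 44.0% and 65.1% in scramble KD. In the TERRA KD lists it was 51.0% and 20.5%. Within the 13229 coding genes whose TSS had an ATAC peak in all 4 lists, as all 10 genes did, it was 56.2%, 70.7%, 61.6% and 13.2%. In replicate 2 the 10 genes thus went down together with coding genes at large, and in replicate 1 they went down while the coding-gene share went up. With each pair of lists reduced to the same number of top-ranked peaks, the coding-gene share was 44.0% and 46.0% against 41.7% and 20.5%. It then went down in replicate 1 too, and the 10 genes stayed at 5 and 5 against 2 and 1. With 10 genes, each gene is 10% of the set, and the difference from other genes was not tested.

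**Figure D2:**
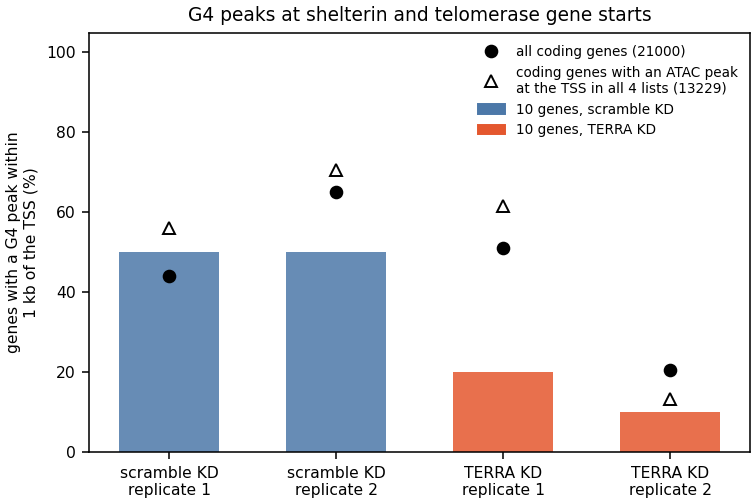
Share of genes with a G4 peak within 1 kb of the TSS (y axis, %) in each G4 list (x axis). Bars are the 10 shelterin and telomerase genes, dots all coding genes and triangles coding genes with an ATAC peak at the TSS in all 4 lists. The bars stand at 50% in both scramble KD lists and at 20% and 10% in the TERRA KD lists.

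Terf2 was the only gene of the 10 with a G4 peak at the TSS in both scramble KD lists and in neither TERRA KD list. Terf2 lies at chr8:107069400-107096548 on the minus strand, and the microRNA gene Mir7075 starts 442 bp inside it. In scramble KD replicate 1 the peak held 7 tags with a fold enrichment of 12.1 and a −log10 p of 4.65, with its summit 272 bp inside the gene. In replicate 2 it held 36 tags with a fold enrichment of 5.10 and a −log10 p of 5.95, with its summit 356 bp inside. Both peaks spanned the motif of the first exon, 130 to 154 bp from the TSS. This pattern was found at 5.23% of coding genes, at 7.59% of those with a constantly open TSS, and the opposite pattern, a peak in both TERRA KD lists alone, at 0.238%. A count of 1 gene of 10 is near these shares and is no result about the set. With a −log10 p of at least 5, no peak was left at the Terf2 start in scramble KD replicate 1.

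Acd, for TPP1, which joins telomerase to shelterin, was the opposite case. It lies at chr8:105698155-105701228 on the minus strand and was the only gene of the set with a G4 peak at the TSS in all 4 lists, which was so for 8.96% of coding genes. Among peaks with a −log10 p of 5 or more, its start had one in scramble KD replicate 2 alone. Its start lies 80 bp from that of Pard6a, a cell polarity gene on the other strand, so peaks there belong to both. Scramble KD replicate 1 had a peak of 5 tags inside the gene (fold enrichment 12.9) and a peak of 6 tags upstream (8.06). In scramble KD replicate 2 a single peak of 8556 bp and 593 tags (9.93) covered the whole gene at the 99.8th percentile. TERRA KD replicate 1 had a peak of 17 tags inside (3.72) and a peak of 35 tags upstream (4.87). In TERRA KD replicate 2 the only peak in reach, of 98 tags (4.22), had its summit 1985 bp upstream, and with a window of 500 bp Acd had none in this list. The motif upstream of Acd, printed above, lay under a peak in 3 lists and not in TERRA KD replicate 2. The intron motif lay under a peak in scramble KD replicate 2 and in both TERRA KD lists. The 3′ end of Acd also lay under a G4 peak in all 4 lists, with summits 2.59 to 3.75 kb from the TSS, in 3 lists beyond the end of the gene. In scramble KD these were a peak of 22 tags (fold enrichment 20.3, the 96.4th percentile) and the peak of 8556 bp named above. In TERRA KD they held 107 tags (10.8, the 99.8th percentile) and 150 tags (4.05, the 99.6th). G4 peaks covered 25.6% and 100% of the Acd body in scramble KD against 87.6% and 64.6% in TERRA KD. The Acd body overlaps Pard6a and a further gene, Carmil2, so the G4 signal over the body and the 3′ end need not belong to Acd.

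Terf2ip, for the TRF2 partner RAP1, lies at chr8:112011359-112020528 on the plus strand, and Kars, for a lysyl-tRNA synthetase, starts 5 bp away in the other direction. Its start had a G4 peak in 3 lists. These were peaks of 11 tags (fold enrichment 7.36) and 79 tags (5.20) in scramble KD and of 27 tags (7.58, the 88.0th percentile) in TERRA KD replicate 1, with none in TERRA KD replicate 2. Over the body the counts were 2 and 2 against 1 and 0, which do not overlap. The share of coding genes with such a pattern was not computed. The exact permutation test over the 4 samples gave p = 0.333, the smallest that 2 samples against 2 allow.

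The other starts had a G4 peak in at most 1 list, always a scramble KD list. Terf1, at chr1:15805646-15844052, had a peak of 4 tags in replicate 1 at percentile 7.01. Pot1a, at chr6:25743942-25809218, also had 4 tags in replicate 1 (29.6). Tinf2, at chr14:55679080-55681817, had 32 tags in replicate 2 (56.0), and this was the only peak of any of the 3 ChIP targets over this short gene. The start of Tert, at chr13:73626911-73649843, had a peak of 66 tags in replicate 2 (75.0), which ran over 2244 bp and spanned the TSS. Pot1b (chr17:55651190-55712636), Dkc1 (chrX:75095854-75109776) and Rtel1 (chr2:181319724-181356616) had none. Of these, Rtel1 and Pot1b carried a motif close to the TSS, so a motif and an open start did not always come with a G4 peak.

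**Figure D3:**
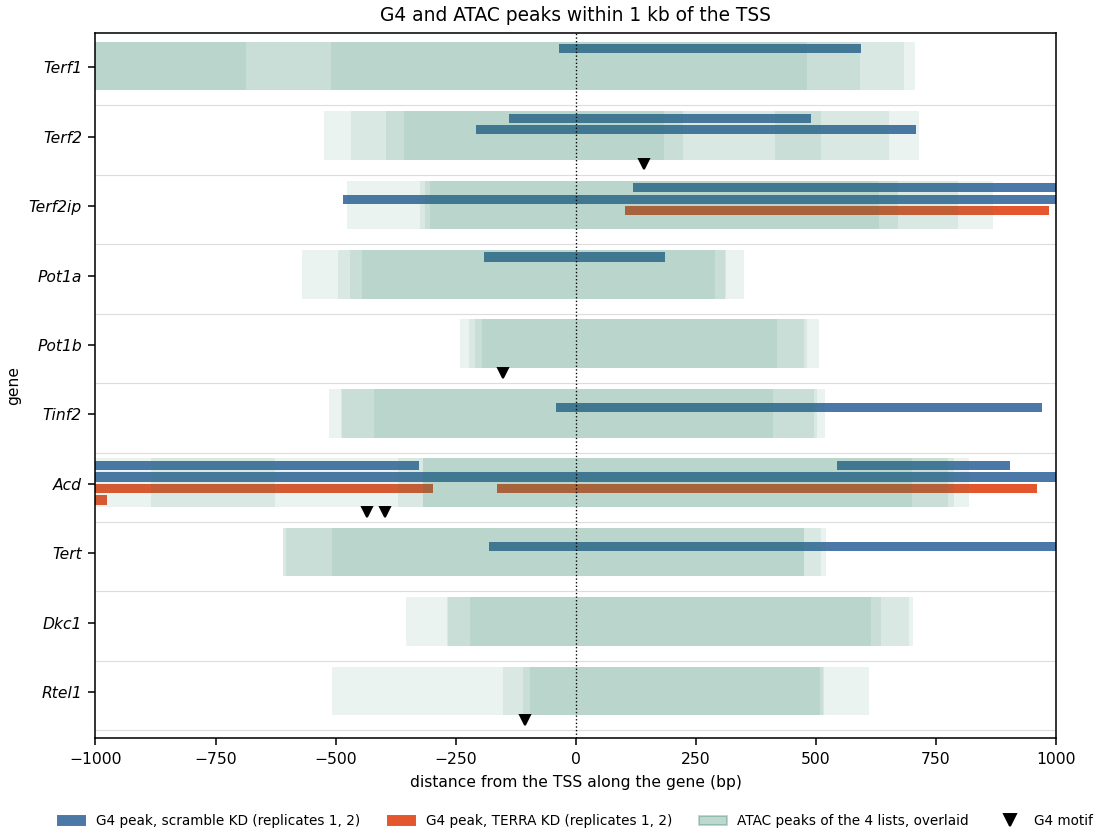
G4 peaks (bars, blue scramble KD and red TERRA KD, replicate 1 above replicate 2) and ATAC peaks (green, the 4 lists overlaid) within 1 kb of the TSS of each gene. The x axis is the distance from the TSS in bp along the gene, and triangles are G4 motifs. Red bars are found at Terf2ip and Acd, blue bars at 7 genes.

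All 10 starts had an ATAC peak in the window, and most G4 peaks at them shared bases with one. Of the G4 peaks at the 10 starts, 5 of 6 and 5 of 5 in scramble KD and 3 of 3 and 1 of 1 in TERRA KD overlapped an ATAC peak of the same condition and replicate number. In the whole G4 lists, at a TSS or not, the share was 11.7%, 11.7%, 15.4% and 8.07%. The peak of TERRA KD replicate 2 was that at Acd, with its summit 1985 bp upstream. A motif lay within 3 of 6, 3 of 5, 1 of 3 and 1 of 1 of the G4 peaks at the starts, beside 33.5% to 41.1% of all G4 peaks.

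Over the gene bodies, 14 and 49 G4 peaks were found in scramble KD against 11 and 26 in TERRA KD, so the conditions overlapped. Per 100 kb of the 10 bodies this was 4.98 and 17.4 against 3.91 and 9.25, beside 6.32, 19.2, 8.84 and 11.1 over all coding-gene bodies. Within each condition the deeper library gave the higher count. Terf2 had the most G4 peaks in total, with 4 and 15 against 2 and 6. Tert had 1 and 9 against 1 and 5, and Rtel1 0 and 9 against 0 and 2. In each of these genes the scramble KD replicates differed by more than the conditions did within either replicate number. At Terf2 and Rtel1 the TERRA KD replicates differed by less than the conditions did in replicate 2. Pot1a had 3 and 4 in either condition.

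A G4 peak inside Terf2 was present in all 4 lists. It lay in an intron 6.38 to 7.16 kb from the TSS. It held 23 tags (fold enrichment 16.9) and 146 tags (11.5) in scramble KD, and 61 tags (23.4) and 92 tags (6.45) in TERRA KD, ranking at the 96.2nd, 96.7th, 99.7th and 97.4th percentile. The 649 bp that the 4 peaks share held no G4 motif of the above form. At its centre lay a tandem repeat with a unit of 27 bp that spanned about 283 bp, or 10.5 copies at a match of at least 80%, part of which (chr8:107090108-107090208) is shown because a G4 peak lay on it in every list.
Terf2 intron: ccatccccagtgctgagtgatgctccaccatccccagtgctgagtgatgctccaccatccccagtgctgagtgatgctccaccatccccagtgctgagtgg

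**Figure D4:**
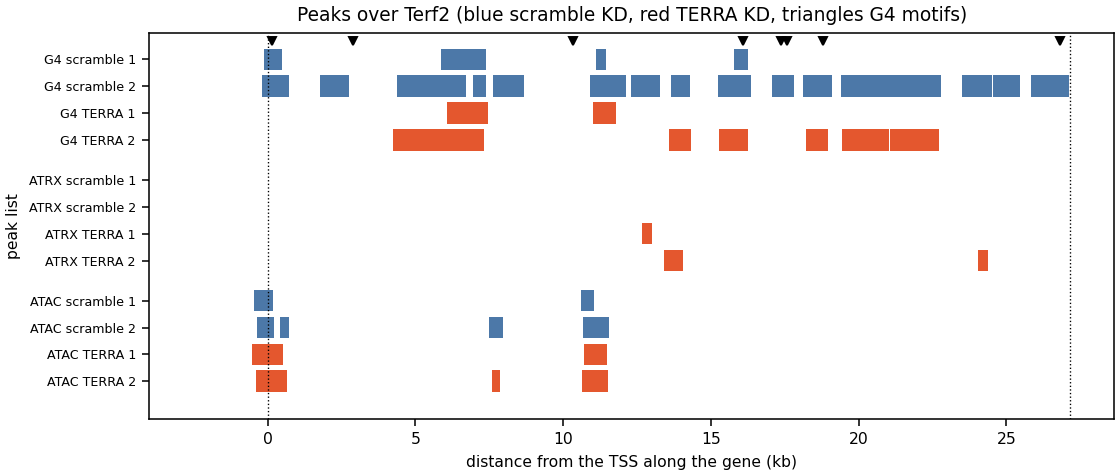
Peaks along Terf2, with the distance from the TSS in kb on the x axis and the 12 lists of G4, ATRX and ATAC as rows (blue scramble KD, red TERRA KD). Dotted lines mark the start and end of the gene and triangles are G4 motifs. G4 bars at the start are blue only, the bars near 6 to 7 kb are present in all 4 lists, and ATRX bars are red only.

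ATRX peaks were few at these starts, and those at the 10 genes held 4 to 12 tags. Within 1 kb of the TSS there was 1 in each scramble KD list, at Pot1a in replicate 1 (6 tags, 983 bp inside the gene) and at Acd in replicate 2 (9 tags, 921 bp upstream), and there were 0 in either TERRA KD list. Among coding genes the share with an ATRX peak at the TSS was 1.11% and 0.590% in scramble KD against 8.29% and 4.85% in TERRA KD. At these shares 10 genes would hold about 1 such peak or fewer, so a gain of that size was not detectable in a set of 10.

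Over the bodies, ATRX peaks were found at 1 and 2 of the 10 genes in scramble KD, compared with 6 and 3 in TERRA KD, with 2 and 3 peaks against 11 and 4. The share of coding genes with a body peak was 10.4% and 13.5% in scramble KD against 35.2% and 26.8% in TERRA KD. The median length of the 10 genes was 25.0 kb and that of coding genes 16.7 kb, and per 100 kb of body the set had 0.712, 1.07, 3.91 and 1.42 peaks where coding genes had 0.284, 0.475, 1.56 and 0.994, which is more in every list. The set thus went up with the coding genes, and 11 of the 15 peaks in TERRA KD came from replicate 1, whose list was the longest with 41384 peaks against 7321, 13652 and 21718. When each pair of lists was reduced to the same number of top-ranked peaks, the counts were 2 and 3 against 3 and 1, so the direction turned. No ATRX peak of the set reached a −log10 p of 5. Such a peak lay at the TSS of 0.0190% and 0.0190% of coding genes in scramble KD against 0.176% and 0.114% in TERRA KD. The share over coding-gene bodies is not given here, so this lack is no result about the set.

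Among single genes, Terf2 had ATRX body peaks in both TERRA KD lists (1 and 2) and in neither scramble KD list. The exact permutation test gave p = 0.333, the smallest possible. The TERRA KD peaks held 4 tags in replicate 1 (12.8 kb from the TSS) and 12 and 8 tags in replicate 2 (13.8 and 24.2 kb), and none of the positions was shared between the replicates. The same pattern was seen at 8.08% of coding genes and at 10.5% of those of 20 to 40 kb, the length class of Terf2. Terf1 had 3 ATRX peaks in TERRA KD replicate 1 (17.4, 19.5 and 35.8 kb), Terf2ip and Dkc1 had 1 each there, and Tert had 1 in TERRA KD replicate 2 at 20.3 kb, none of these in the other replicate. Pot1a had 2 peaks in replicate 1 of either condition. One of them, in TERRA KD at 7.87 kb, lay on the intron site that was open in all 4 ATAC lists. Rtel1 had 1 peak in scramble KD replicate 2, and Tinf2 and Acd had no body peak.

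H3K9me3 was confined to 4 of the 10 genes, Terf1, Pot1b, Pot1a and Terf2ip, and the other 6 had no body peak in any list. Body peaks in all 4 lists were found at Terf1 and Pot1b, 2 of the 10 genes, against 9.15% of coding genes, and at 38.4 and 61.4 kb both are longer than the median coding gene of 16.7 kb. In each list 3 of the 10 genes had a body peak, where the share of coding genes was 14.9% and 23.0% in scramble KD against 14.0% and 22.9% in TERRA KD. The 4 lists held 12, 15, 7 and 18 body peaks, lower in TERRA KD in replicate 1 and higher in replicate 2. H3K9me3 peaks covered 10.4% and 3.01% of the 10 bodies in scramble KD against 15.2% and 3.71% in TERRA KD, beside 1.67% and 0.955% against 1.98% and 1.04% of coding-gene bodies. The covered share was thus the higher in TERRA KD within either replicate number, for the set as for coding genes, by less than the replicates of a condition differed.

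Terf1, for the duplex-binding TRF1, had the broadest H3K9me3. The peaks covered 37.1% and 12.2% of its body in scramble KD against 56.4% and 11.2% in TERRA KD. TERRA KD was the higher in replicate 1 and the lower in replicate 2, and both replicate 1 values lay above both of replicate 2. The strongest stretch lay in an intron about 20 kb from the TSS in every list but scramble KD replicate 2. It was called as a peak of 236 tags in scramble KD replicate 1 (fold enrichment 36.2, −log10 p 21.57) and of 394 tags in TERRA KD replicate 1 (41.5, 24.96), at the 93.6th and 92.7th percentile. In scramble KD replicate 2 the stretch held a peak of 6 tags (8.24, −log10 p 3.52). A peak of 9 tags at 15.3 kb had a higher −log10 p in that list (7.49, 3.62). In TERRA KD replicate 2 the stretch held a row of peaks, of which the strongest had 11 tags (9.89, −log10 p 5.17). The peak of scramble KD replicate 1 was repeat-masked over 74.4% of its length and that of TERRA KD replicate 1 over 57.3%. In scramble KD replicate 2 the peak on the stretch was masked over 100% and that at 15.3 kb over 13.6%. Of the Terf1 body, 41.4% is masked. In the row of TERRA KD replicate 2, from 19.6 to 23.5 kb, 3 peaks were masked over 96.4% to 100% and the other two over 32.8% and 24.6%. ATRX peaks in TERRA KD replicate 1 lay on the same stretch at 17.4 and 19.5 kb. Upstream of Terf1, H3K9me3 peaks reached into the TSS window in scramble KD replicate 1 and in both TERRA KD lists, with summits 1278, 2382 and 1134 bp before the start.

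Pot1b, for the second overhang-binding protein of the mouse, carried H3K9me3 in the middle of the gene. The peaks covered 17.1% and 4.78% of its body in scramble KD against 19.3% and 6.30% in TERRA KD. Peaks 34.7 to 36.2 kb from the TSS were found in all 4 lists. The strongest held 60 tags (fold enrichment 70.4) and 14 tags (11.2) in scramble KD, and 237 tags (42.3) and 12 tags (11.9) in TERRA KD. ATRX peaks lay there in 3 lists, at 34.9 kb in scramble KD replicate 2, at 35.0 and 36.3 kb in TERRA KD replicate 1 and at 36.2 kb in TERRA KD replicate 2. All 4 of these overlapped an H3K9me3 peak of the same condition and replicate number. The H3K9me3 peaks there were repeat-masked over 80.3% to 100% of their length, against 45.9% of the Pot1b body, and the part of read placement among repeat copies was not tested. The summit region at chr17:55676376-55676506, minus strand, is printed as the site where ATRX and H3K9me3 coincided in both TERRA KD replicates, and 97.7% of it is repeat-masked. Scramble KD peaks lay on it as well, of H3K9me3 in replicate 1 (summit at 36.1 kb) and of G4 in replicate 2 (29 tags, summit at 36.2 kb).
Pot1b intron: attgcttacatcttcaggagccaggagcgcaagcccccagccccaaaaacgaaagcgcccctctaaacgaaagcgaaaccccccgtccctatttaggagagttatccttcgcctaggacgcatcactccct

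A second site in Pot1b, at 39.8 to 39.9 kb, was little repeat-masked, and read placement was not tested there either. H3K9me3 peaks lay on it in both scramble KD lists (33 and 13 tags) and in TERRA KD replicate 1 (76 tags), and an ATRX peak of 7 tags in TERRA KD replicate 1. The ATRX peak was repeat-masked over 5.34% of its length, with its summit in an exon. It had a −log10 p of 3.90, the highest of any ATRX peak at the 10 genes. TERRA KD replicate 1 also had an H3K9me3 peak of 5391 bp upstream of Pot1b that reached into the TSS window. This start was open in all 4 ATAC lists, and in the other 3 H3K9me3 lists no peak reached into the window.

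**Figure D5:**
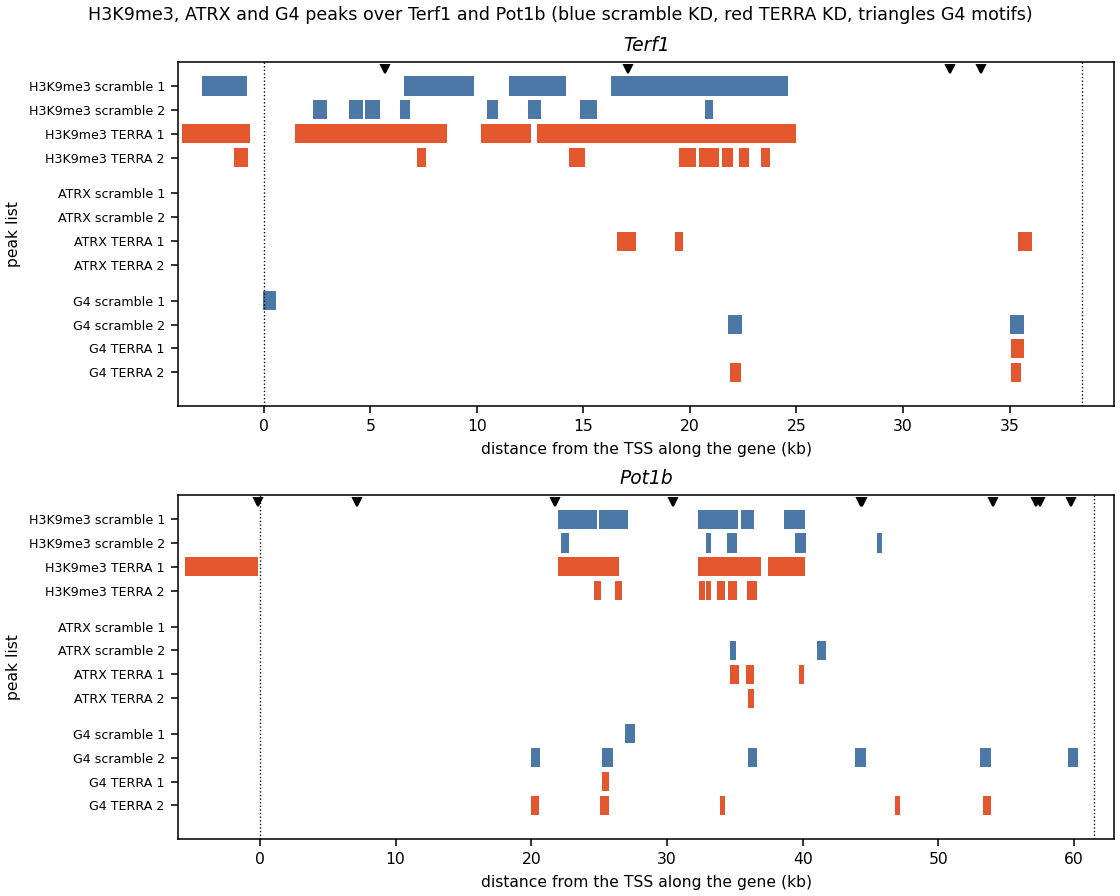
Peaks along Terf1 (above) and Pot1b (below), with the distance from the TSS in kb on the x axis and the 12 lists of H3K9me3, ATRX and G4 as rows (blue scramble KD, red TERRA KD). Dotted lines mark the start and end of each gene and triangles are G4 motifs. H3K9me3 is broad in replicate 1 and broken into short peaks in replicate 2, and the ATRX bars of Pot1b lie between 34 and 42 kb.

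Pot1a, the paralog of Pot1b, had H3K9me3 over 7.05% and 0% of its body in scramble KD against 14.0% and 3.45% in TERRA KD. The summits lay 25.5 to 32.3 kb from the TSS, apart from a peak of 7 tags at 14.9 kb in TERRA KD replicate 2. The peaks numbered 3 and 0 against 1 and 4, so the conditions overlapped (exact permutation p = 0.667). Terf2ip had 2 weak peaks in scramble KD replicate 2 alone, at the 2.35th and 4.79th percentile. At the TSS, H3K9me3 peaks were found at 1 and 0 of the 10 genes in scramble KD against 2 and 1 in TERRA KD, where coding genes had 2.04%, 1.72%, 2.12% and 1.68%.

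ATRX and H3K9me3 peaks met in part. Of the ATRX peaks over the 10 bodies, 0 of 2 and 1 of 3 in scramble KD and 6 of 11 and 1 of 4 in TERRA KD overlapped an H3K9me3 peak of the same condition and replicate number. In the whole ATRX lists the share was 21.6%, 16.4%, 30.2% and 16.9%. The overlaps in the set were at Terf1, Pot1a and Pot1b. Terf2, Tert, Dkc1 and Rtel1 had ATRX body peaks but no H3K9me3 body peak in any list, so no overlap could occur there. Terf2ip had H3K9me3 peaks in scramble KD replicate 2 alone, where it had no ATRX peak.

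Across the 10 genes and 4 assays, the counts of body peaks gave 40 comparisons of TERRA KD with scramble KD. In 2 of them, G4 at Terf2ip and ATRX at Terf2, the exact permutation test reached its smallest p of 0.333. None could pass a threshold of 0.05 with 2 samples per condition. The share of coding genes that reach the smallest p in the same assay was not computed, so these 2 are no result about the set.

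A further 24 telomere genes were counted for comparison: 6 of the telomerase particle, 3 of the CST complex, which helps to fill in the complementary strand, and 15 partners or regulators of shelterin. A G4 peak at the TSS was found at 8 and 13 of them in scramble KD, compared with 10 and 2 in TERRA KD, where the coding-gene shares were 44.0% and 65.1% against 51.0% and 20.5%. ATAC peaks were at 22 and 23 in either condition. ATRX peaks were at 0, 0, 3 and 0 of them and H3K9me3 peaks at 0 in every list. A G4 peak in both scramble KD lists and neither TERRA KD list was seen at Terc and Tnks, and the opposite at 0. These are 2 of 24 genes, beside 5.23% of coding genes and 7.59% of those with a constantly open TSS, so the count is no result about the list. Terc, which encodes the telomerase RNA (chr3:96414437-96414833), had 5 tags (fold enrichment 10.8) and 31 tags (5.36) in scramble KD. Tnks, which encodes tankyrase (chr8:34829179-34965690), had 13 tags (21.9, the 92.2nd percentile) and 37 tags (5.85).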

How the data were processed

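Reads were trimmed by the authors, mapped to GRCm38/mm10 with Bowtie2 2.3.4.1 and cleared of duplicates with SAMtools 1.9. They called peaks per library at a p of 0.01, using input for ChIP (MACS 1.4.2 for G4 and 1.4.3 for ATRX and H3K9me3, per the file headers) and none for ATAC (MACS 2.2.7.1). The deposited ChIP lists give the count of tags in a peak, a score equal to 10 times the −log10 p and the fold enrichment, a ratio to the local background. The deposited ATAC lists hold the pileup signal of the summit, the −log10 p and a fold enrichment. In the deposited lists these values are not scaled to depth, which the tag totals in the report show to differ, so the lack of a peak means that none was detectable at that depth.

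Samples were grouped by the condition in their labels. There were 22 samples, of which 6 inputs entered only through the calls, with 1 input shared by both G4 lists of a condition and 1 by the ATRX and H3K9me3 lists of the same condition and replicate number. A peak was counted when it shared at least 1 bp with the TSS window (1000 bp on either side) or the gene body. TSS came from 45756 curated RefSeq transcripts (GRCm38.p6). No peak ended past its chromosome in that build, and 0 pairs of lists were identical. The body peak counts of single genes were compared by an exact permutation test (two-sided). The labels do not say that replicates were separate cultures, so spread between them may be technical. The 10 genes were all described. Of the other telomere genes, those with a G4, ATRX or H3K9me3 TSS peak in both lists of 1 condition only are named. The genes, lists and rules were chosen with earlier results of these data known. Masked repeats are lower-case bases of the genome file. The counting was tested on simulated data (Python with numpy and pandas). Alternatives covered the p cutoff, the window, the starts, the peak midpoint, list length, each replicate and the replicate block.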

Additional observations from a re-analysis of the deposited data

How the results depend on the processing

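Values are TERRA KD minus scramble KD, as the mean over replicate numbers, for genes of the 10 with a TSS peak and for body peaks. G4 at the TSS was −3.5 and kept its sign under every alternative run, with −2.5 at a −log10 p of at least 5, where replicate 1 no longer differed and the conditions overlapped. G4 over bodies was −13 and ATAC over bodies −1.5, each with the same direction throughout. ATRX at the TSS was −1, and came to 0 at a −log10 p of at least 5 and with a window of 500 bp, and to −0.5 with 3 kb and with peak midpoints. ATRX over bodies was 5, came to 0 at a −log10 p of at least 5 and turned to −0.5 when both lists of a replicate number kept equally many top-ranked peaks. H3K9me3 at the TSS was 1, came to 0 with midpoints and turned to −1 with 3 kb. H3K9me3 over bodies was −1 and turned to 1 at a −log10 p of at least 5. Leaving out a replicate gave −4 to −3 for G4 and 0 for ATAC at the TSS, −23 to −3 for G4, −2 to −1 for ATAC, 1 to 9 for ATRX and −5 to 3 for H3K9me3 over bodies. At the TSS it left ATRX at −1 and H3K9me3 at 1. The cause of these shifts was not tested. With the replicate block, the paired mean differences were the values above (G4 −3.5 at the TSS and −13 over bodies) and changed no call, since a sign-flip test on 2 pairs cannot go below an exact p of 0.5. Same-numbered libraries deviated together with an r of 0.44 for G4, 0.15 for ATAC, −0.04 for ATRX and 0.29 for H3K9me3 across 1000000 bp stretches, which share depth and mappability. Several G4, ATRX and H3K9me3 calls rest on peaks of 4 to 7 tags.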
